A study of Mus musculus with 12 samples.

Results

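Potassium channel genes were taken here as all genes with an array probe whose name in the scanner files starts with Kcn. They numbered 85 of the 27596 genes on the array, and each was read from its probe with the highest signal. By name they fell into 36 voltage-gated alpha subunit genes, 14 inward rectifier genes, 11 two-pore genes, 8 calcium- or sodium-activated genes and 16 auxiliary or regulatory genes. Total RNA from 4 groups of 3 mouse samples was hybridised to 1-colour arrays. C2C12 myoblasts, from a mouse line of muscle precursor cells, were dividing in 10% fetal bovine serum and were collected at about 50% confluence. C2C12 myotubes had spent 96 hours in 2% horse serum. They were detached with trypsin and left for 30 min in proliferation medium, and the cells still floating were kept, which enriches fused cells without removing all single ones. From the hind limbs of male CD1 mice aged 3 months came the EDL (extensor digitorum longus), which is fast and glycolytic, and the slow, oxidative soleus, with both limbs of a mouse pooled. Whether cultures were grown separately, or both muscles taken from the same mice, is not stated in the labels, so p-values measure the spread between these samples only.

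Potassium channels let potassium leave or enter the cell along its gradient and so set the resting voltage of the muscle membrane and end each action potential. Voltage-gated channels open on depolarisation, inward rectifiers hold the membrane near the potassium equilibrium, two-pore channels carry background current, and calcium-activated channels link the voltage to calcium inside the cell. Many pore subunits work with partners: ATP-sensitive channels join Kcnj8 or Kcnj11 to a sulfonylurea receptor. In large-conductance (BK) channels, beta or gamma subunits can join the pore Kcnma1.

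Values are log2 of the processed signal after scaling each array to its 75th percentile, called the normalized log2 signal below. They compare samples for 1 gene and not genes with each other. The 75th percentile signal was 1048 to 1556 in myoblasts, 1018 to 1230 in myotubes, 466 to 595 in EDL and 457 to 614 in soleus, and 57.4% to 72.8% of probes per array were well above background. Because the muscle arrays were dimmer, scaling lifted their background: the 10 members that were well above background on no array still differed by a median log2 difference of 0.93 between EDL and myotubes, 0.90 between soleus and myotubes, 0.45 between myotubes and myoblasts and -0.02 between soleus and EDL. Where a group had no array well above background, a fold is therefore given as a lower bound against the lowest signal that the scanner called well above background. The bound itself was not tested. An adjusted p beside it belongs to the fitted difference, which includes the lifted background, so a small bound can stand beside a low adjusted p. Differences between tissue and cultured cells also cannot tell fewer cells of a type from less RNA per cell.

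Between 29 and 36 of the 85 members were seen in each group. A member was well above background on all 3 arrays in 34 of 85 cases in myoblasts (40.0%, against 61.0% of all genes), 29 in myotubes (34.1% against 59.3%), 32 in EDL (37.6% against 57.4%) and 36 in soleus (42.4% against 57.2%). This difference from all genes is a description and was not tested. At a looser limit of at least 2 of 3 arrays, the EDL count became 49, and the counts of the other groups stayed within 1.5 times those given. The rise was not particular to EDL: with 1 array of a group left out, counts reached up to 44 in myoblasts, 39 in myotubes, 47 in EDL and 53 in soleus. Shares of all genes at these looser limits were not counted. In all, 54 members met the limit in at least 1 group, and 12 did so in all 4, among them Kcnab1, Kcnc4, Kcnh2, Kcnj12, Kcnj15, Kcnk3, Kcnk13, Kcnmb4, Kcnn1 and Kcnq1. Both muscles and neither culture held 11 (Kcna1, Kcna5, Kcne1l, Kcne2, Kcne3, Kcne4, Kcng4, Kcnk1, Kcnma1, Kcnn2 and Kcnq5), and both cultures and neither muscle held 8 (Kcnab2, Kcnab3, Kcnc2, Kcnh6, Kcnk5, Kcnk7, Kcnn4 and Kcnq3). Missing the limit is not absence: Kcnab2, Kcnh6, Kcnk5 and Kcnq3 were well above background on 2 of 3 arrays of each muscle, Kcnc2 and Kcnn4 on 2 of 3 of soleus, Kcnq5 on 2 of 3 of each culture and Kcne4 on 2 of 3 of myotubes. The mean log2 level of Kcnab2 was 5.01 in EDL and 5.12 in soleus, against 3.90 in myoblasts and 4.40 in myotubes. Among families, two-pore genes counted 7 of 11 in myoblasts against 4 in myotubes, and calcium- or sodium-activated genes 3 of 8 in myoblasts against 5 in myotubes. The 10 members well above background on no array included Kcna3, Kcna4, Kcnb2, Kcnh1, Kcnh8, Kcnip4, Kcnj1, Kcnv1 and Kcnv2.

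**Figure D1:**
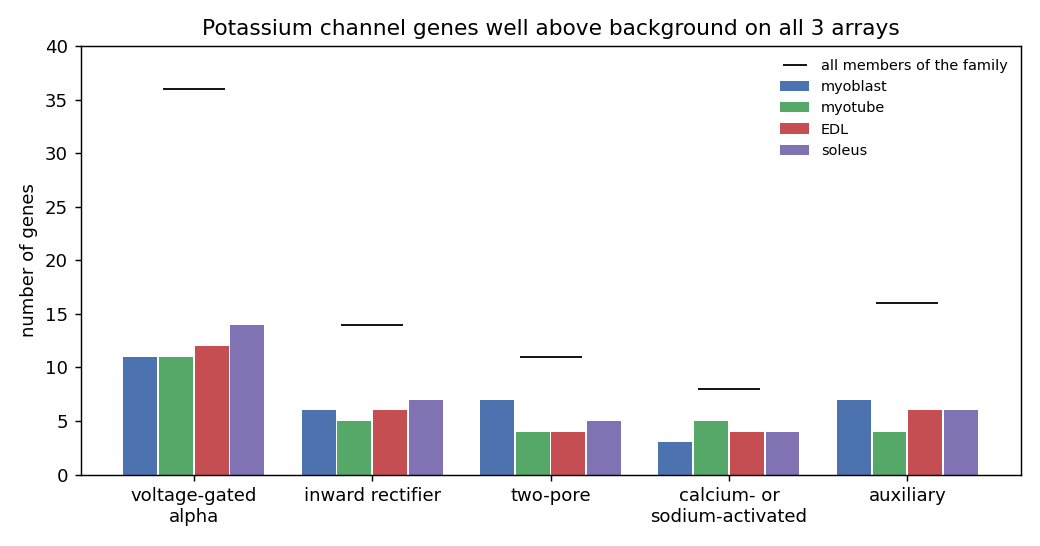
Number of potassium channel genes (vertical axis) whose brightest probe passed the background flag on each of a group's 3 arrays, by family; bars are the 4 groups and black dashes the number of members in each family. Soleus has the most voltage-gated alpha genes, 14 of 36, and myoblasts the most two-pore genes, 7 of 11.

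For tests, 55 members passed the filter, which asks that in 1 group or more all 3 arrays show the probe well above background, and 30 did not. Passing through a single group favours a difference without fixing one, so the counts below are read only as descriptions. Kcnt1 passed through a probe other than its brightest. The fit was run over 18862 genes, and a gene was called when the adjusted p was below 0.05 and the log2 difference at least 1 in size. Each of 3 slides held 1 array of each group at a fixed place, so place on the slide and group cannot be told apart, while slide and group can. All calls of members, 24, 38, 41 and 15 in the 4 comparisons below, kept their direction on each of the 3 slides.

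**Figure D2:**
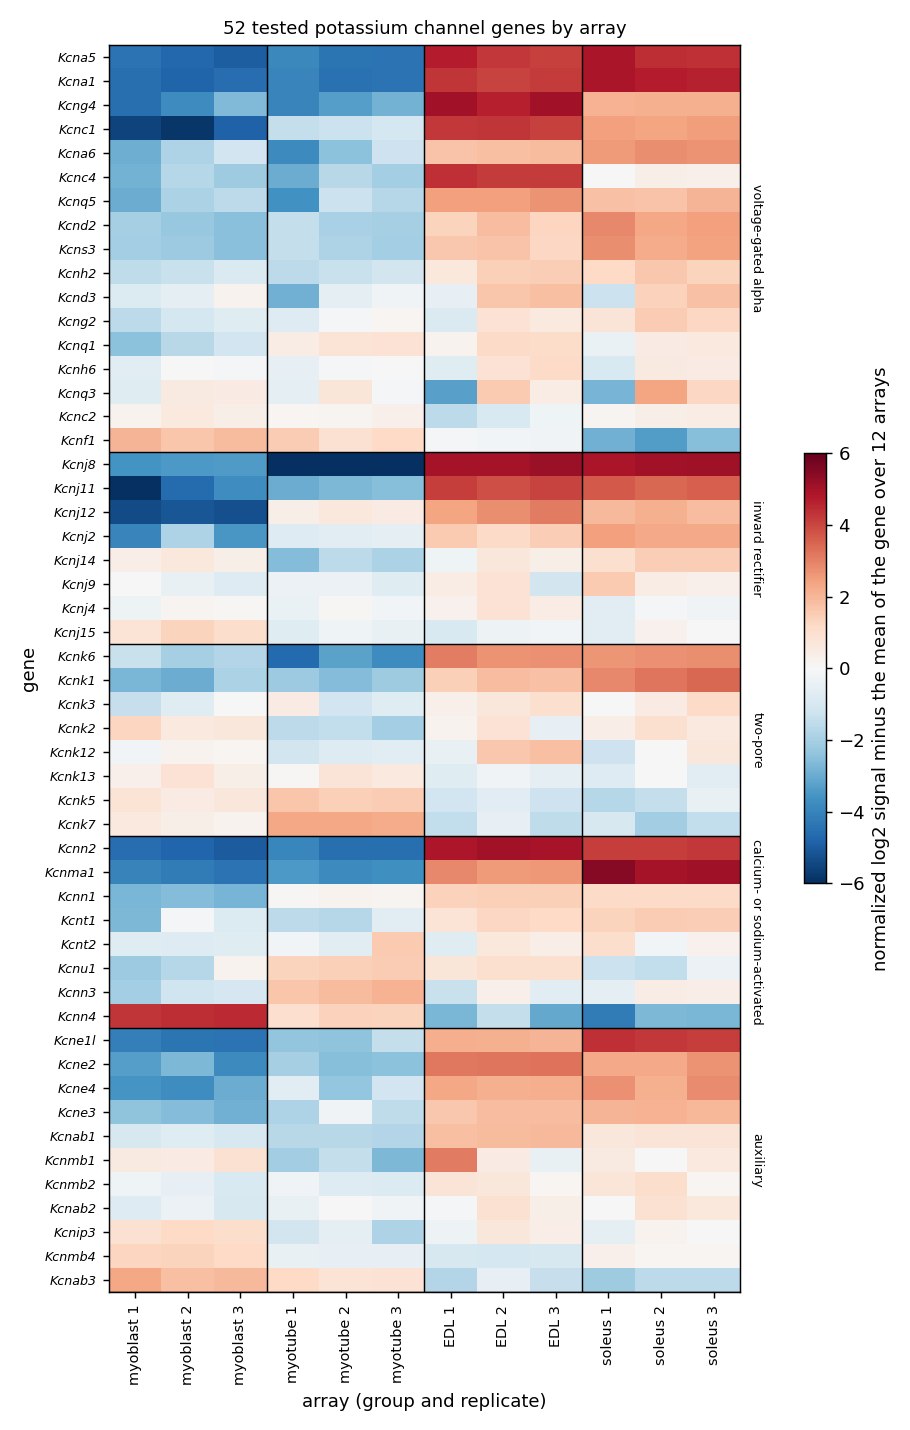
Normalized log2 signal of 52 of the 55 tested genes (rows, by family) on each of the 12 arrays (columns), shown as the difference from the gene's own mean; red is higher and blue lower, and vertical lines separate the groups. Kcna1, Kcna5, Kcnj8 and Kcnn2 turn from blue in both cultures to red in both muscles, and Kcnn4 and Kcnab3 are darkest red in myoblasts.

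The first comparison asked which potassium channel genes changed as myoblasts became myotubes. The strong inward rectifier Kcnj12 was 53.1-fold higher in myotubes. The small-conductance calcium-activated gene Kcnn1 and the voltage-gated gene Kcnq1 were 7.32-fold and 5.50-fold higher, while the intermediate-conductance gene Kcnn4 was 8.83-fold lower. With normexp background correction 4 members in all were called, and 18.2% of all genes tested. Kcnn1 and Kcnq1 were then at 1.28 and 0.38 on the log2 scale (adjusted p = 0.0865 and 0.596) and not called. Of the 55 tested members 24 were called (43.6%), 14 higher and 10 lower in myotubes. Of all genes tested 35.4% were called, 18.9% higher and 16.5% lower. The median log2 difference was 0.24 for the tested members and 0.04 for all genes tested. Of 23 members seen on all 6 arrays compared, 9 were called, 5 higher (among them Kcnj12, Kcnn1, Kcnq1 and Kcnk7) and 4 lower (Kcnn4, Kcnmb4, Kcnj15, Kcnab3). The share of all genes seen on these 6 arrays that was called was not counted.

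Among voltage-gated genes, 4 of 20 tested rose and none fell. Kcnq1, a slowly opening channel that pairs with Kcne subunits, went from 5.00, 5.78 and 6.30 to 7.89, 8.27 and 8.29, with a difference of 2.46 ± 0.38 (adjusted p = 0.000243). No array of a group reached the other group. Kcnc1, a channel of the fast Shaw type, was well above background on no myoblast array and stood at 5.19, 5.35 and 5.56 in myotubes. That is at least 5.29-fold higher (adjusted p = 5.11e-08). Another of its 3 probes averaged 2.27 in myotubes and was well above background on no myotube array. Kcnc1 had the opposite sign, uncalled, with normexp background correction (-0.62).

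Inward rectifiers split, with 3 of 8 tested higher and 3 lower. Kcnj12 (probe at chr11:60886778-60886836, build mm8, plus strand) stood at 4.59, 4.83 and 4.67 in myoblasts and at 10.29, 10.57 and 10.43 in myotubes, a difference of 5.73 ± 0.17 (adjusted p = 1.05e-09). All myotube arrays were far above all myoblast arrays. Its close relative Kcnj2, which sets the resting voltage in muscle, read 1.36, 3.44 and 1.83 against 4.53, 4.68 and 4.74, with 1 myoblast array well above background. That is 2.44 ± 0.42 higher (adjusted p = 0.000464), but with 50 added to every signal the difference was 0.71 and not called. Kcnj8, a pore of ATP-sensitive channels, was well above background on no myotube array. There it was at least 1.91-fold lower, with a fitted difference of -3.11 (adjusted p = 1.14e-08). That rests on 1 probe: the other probe of Kcnj8 was well above background on no array of either culture, with a difference of -0.07. Kcnj14, another strong rectifier, was at least 2.64-fold lower (adjusted p = 3.53e-05), and with 50 added neither Kcnj8 nor Kcnj14 was called (-0.49 and -0.58). Kcnj15 fell by 1.57 ± 0.27 (adjusted p = 0.000442), from 6.96, 7.47 and 7.19 to 5.41, 5.84 and 5.68, a call lost with normexp (adjusted p = 0.107). The other probe of Kcnj15 was well above background on no array.

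Of the calcium- or sodium-activated genes 3 of 8 tested rose and 1 fell. Kcnn4, the intermediate-conductance channel of many dividing and blood cells, was at 11.34, 11.51 and 11.52 in myoblasts and 8.09, 8.45 and 8.40 in myotubes, a fall of 3.14 ± 0.46 (the log2 difference is -3.14, adjusted p = 0.00016). Kcnn1, a small-conductance channel, went the other way, from 6.27, 6.44 and 6.25 to 9.10, 9.26 and 9.22, a difference of 2.87 ± 0.08 (adjusted p = 3.97e-10). For both genes the groups did not overlap. Kcnn3, the small-conductance channel known from denervated and developing muscle, read 2.03, 2.85 and 3.05 against 5.74, 5.95 and 6.13, or 3.30 ± 0.43 higher (adjusted p = 6.19e-05). Kcnu1, known as a sperm channel, was 2.66 ± 0.52 higher (adjusted p = 0.00117), and 1 of 3 myoblast arrays of each of Kcnn3 and Kcnu1 was well above background. With normexp background correction both had the opposite sign, uncalled (-0.36 and -0.44).

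Of the two-pore genes, 1 of 8 tested rose and 2 fell. Kcnk7, a two-pore subunit not known to carry current alone, was 1.90 ± 0.32 higher (adjusted p = 0.000374). The stretch-sensitive Kcnk2 was at least 4.26-fold lower (adjusted p = 6.50e-05) and Kcnk6 at least 2.35-fold lower (adjusted p = 0.000127), both well above background on no myotube array. With 50 added to the signals Kcnk2 and Kcnk6 were at -0.86 and -0.48 and not called. Among auxiliary genes 3 of 11 tested were called higher and 4 fell. One of those called higher, Kcne3, was well above background on no array of either culture, so its 1.44 (adjusted p = 0.00341) lies within the background of both groups. The other probe of Kcne3 gave 0.20, and quantile normalization gave 0.81, uncalled. Kcnmb4, a beta subunit of BK channels, fell by 1.74 ± 0.08 (adjusted p = 2.93e-08), from 9.59, 9.66 and 9.50 to 7.89, 7.83 and 7.81. Kcnip3, a calcium sensor, was at least 3.17-fold lower and Kcnmb1 at least 1.89-fold lower, each well above background on no myotube array. The fitted differences were -2.25 for Kcnip3 (adjusted p = 0.000184) and -2.71 for Kcnmb1 (adjusted p = 0.00817). Kcnip3 was -0.66 and Kcnmb1 -0.45 with 50 added, neither called. Kcnmb1 also lost its call without the arrays of replicate 2 (adjusted p = 0.0552) or 3 (0.0624), and its other probe was well above background on no array. Kcnab3, a beta subunit, fell by 1.05 ± 0.30 (adjusted p = 0.0112) and lost the call without myoblast replicate 1 (-0.90), without myotube replicate 2 (-0.97) and without the arrays of replicate 3 (adjusted p = 0.111). Kcne1l, a small regulatory subunit, was well above background on 1 myotube array and no myoblast array. It was at least 1.29-fold higher, with a fitted difference of 2.25 (adjusted p = 1.11e-05) and 0.45, uncalled, when 50 was added.

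**Figure D3:**
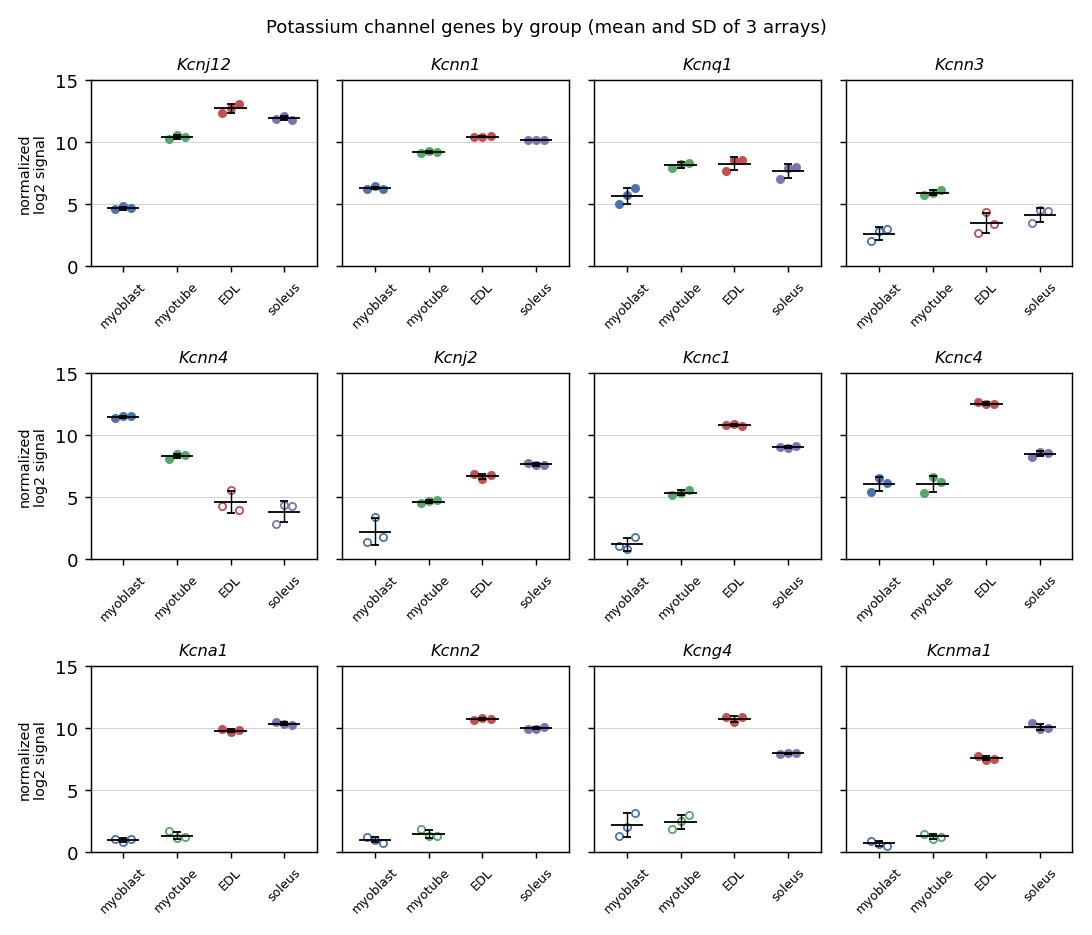
Normalized log2 signal (vertical axis) of 12 potassium channel genes in the 4 groups (horizontal axis); points are single arrays, open where fewer than 3 arrays of the group were well above background, and the bars are the mean and SD of 3 arrays. Levels can be read between groups of a panel, not between panels: Kcnj12 and Kcnn1 step up at the myotube, Kcna1 and Kcnn2 are filled only in muscle, and Kcnn4 steps down.

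The stretches of 250 bases before the start site of 4 of these genes are shown because the genes differ in direction: Kcnj12 and Kcnn1 rose in myotubes, Kcnn4 fell, and Kcnc4, described further on, separates the muscles. They come from RefSeq, build GRCm38.p6. Kcnj12 lies at chr11:61065554-61065803 (plus strand), the starts of Kcnn1 at chr8:70857009-70857258 (minus strand) and chr8:70863259-70863508 (minus strand), Kcnn4 at chr7:24370013-24370262 (plus strand) and Kcnc4 at chr3:107458899-107459148 (minus strand). Capitals mark the E-box CANNTG, the letters that myogenic factors such as MyoD and myogenin bind in general.
Kcnj12: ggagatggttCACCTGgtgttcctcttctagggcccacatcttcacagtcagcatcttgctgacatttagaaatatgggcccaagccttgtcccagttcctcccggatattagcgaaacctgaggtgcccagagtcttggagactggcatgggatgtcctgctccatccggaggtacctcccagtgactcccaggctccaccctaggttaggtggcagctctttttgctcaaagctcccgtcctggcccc
Kcnn1, start 1: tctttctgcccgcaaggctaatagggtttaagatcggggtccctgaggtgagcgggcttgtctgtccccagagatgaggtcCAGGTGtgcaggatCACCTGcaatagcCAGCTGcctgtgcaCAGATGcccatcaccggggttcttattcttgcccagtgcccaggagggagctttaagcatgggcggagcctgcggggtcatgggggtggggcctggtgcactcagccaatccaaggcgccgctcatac
Kcnn1, start 2: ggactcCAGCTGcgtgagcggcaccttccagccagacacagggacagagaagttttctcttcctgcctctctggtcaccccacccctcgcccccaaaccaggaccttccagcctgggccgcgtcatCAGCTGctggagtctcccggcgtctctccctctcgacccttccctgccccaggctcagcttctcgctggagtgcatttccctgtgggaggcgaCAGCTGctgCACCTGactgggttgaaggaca
Kcnn4: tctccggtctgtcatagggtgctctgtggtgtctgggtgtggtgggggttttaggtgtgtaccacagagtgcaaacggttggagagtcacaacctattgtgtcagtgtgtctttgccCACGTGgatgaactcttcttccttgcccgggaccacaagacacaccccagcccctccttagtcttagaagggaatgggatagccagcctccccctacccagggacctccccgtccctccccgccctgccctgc
Kcnc4: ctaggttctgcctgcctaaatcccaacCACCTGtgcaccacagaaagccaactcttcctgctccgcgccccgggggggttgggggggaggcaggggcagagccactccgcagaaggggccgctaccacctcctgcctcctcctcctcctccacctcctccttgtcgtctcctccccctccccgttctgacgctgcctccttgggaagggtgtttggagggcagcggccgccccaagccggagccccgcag
The motif CANNTG reads alike on both strands, CAGCTG and CAGGTG (with its reverse CACCTG) are forms of it and were counted on both strands. Of 32851 promoter stretches of this length, 66.2% held CANNTG, 13.0% CAGCTG and 17.2% CAGGTG. The starts of Kcnn1 held 4 E-boxes each, Kcnj12, Kcnn4 and Kcnc4 held 1 each, and the stretches shown held 4 CAGCTG in all, all at Kcnn1. Other members that rose in myotubes were read but are not shown: Kcnn3 held 0 E-boxes, Kcnc1 held 1 and Kcnj2 held 2, of which 1 was CAGCTG. The RefSeq table held 9 of the 14 members called higher in myotubes, with 11 starts, of which 5 (45.5%) held CAGCTG, and 7 of the 10 called lower, with 12 starts, of which 3 (25.0%) did. Over all 87 stretches of the 62 members in the table, 21 (24.1%) held it. The MEF2 motif was in 2 of the 87 stretches (2.3%) and in 2.92% of all. Starts of a gene can share bases, and a match is not a bound site.

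The next comparisons set the adult muscles against myotubes. Both muscles held much more Kcnj8 and Kcnj11, the pores of ATP-sensitive channels, of the voltage-gated genes Kcna1, Kcna5 and Kcng4, of Kcnn2 and of the BK pore Kcnma1. Kcnn4, Kcnn3, Kcnk5, Kcnk7, Kcnab3 and Kcnf1 were lower in both. In EDL 38 of the 55 tested members were called (69.1%), 31 higher and 7 lower, and of all genes tested 47.7%, with 27.9% higher and 19.8% lower. In soleus 41 were called (74.5%), 32 higher and 9 lower, and of all genes tested 45.3%, with 25.8% higher and 19.5% lower. The median log2 difference was 1.89 in EDL and 1.85 in soleus for the tested members, and 0.21 and 0.14 for all genes tested. Only 18 members for EDL and 16 for soleus were seen on all 6 arrays compared, and 9 of them were called in each, 8 higher and 1 lower. The share of all genes seen on 6 arrays that was called was not counted. Scaling to the added control RNA lowered all genes in muscle, to medians of -0.88 and -1.05, and gave 23 higher and 12 lower in each muscle. Of all genes 57.2% and 60.6% were then called, and 22.6% and 19.7% of those calls were higher in muscle. The comparisons share the myotube arrays.

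Among voltage-gated genes, 10 of 20 tested were higher and 2 lower in EDL, and 12 higher and 3 lower in soleus. Kcna1, a channel of nerve and muscle whose mutations cause episodic ataxia with muscle twitching, was well above background on no culture array and read 9.90, 9.69 and 9.80 in EDL and 10.52, 10.34 and 10.24 in soleus. It was at least 80.4-fold higher than in myotubes in EDL and at least 119-fold in soleus (adjusted p = 2.39e-11 and 1.77e-11). Kcna5, a delayed rectifier, was likewise seen on muscle arrays only, at 10.26, 9.80 and 9.67 in EDL and 10.45, 10.01 and 9.95 in soleus, at least 86.9-fold and 102-fold above myotubes (adjusted p = 2.15e-10 and 2.08e-10). Kcng4, an electrically silent subunit, was at least 154-fold higher in EDL and 22.4-fold in soleus (adjusted p = 2.99e-08 and 7.85e-07). Kcnc4, a fast channel of the Shaw type, was already seen in myotubes at 5.31, 6.61 and 6.26 and reached 12.65, 12.49 and 12.49 in EDL, a difference of 6.48 ± 0.34 (adjusted p = 3.87e-08). Its soleus arrays, at 8.26, 8.65 and 8.59, were 2.44 ± 0.34 above myotubes (adjusted p = 8.69e-05), a call lost with scaling to the control RNA (1.25, adjusted p = 0.0510).

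Other voltage-gated genes moved in both directions. Kcnh2, the rapid delayed rectifier of the heart, was 2.51 ± 0.25 higher in EDL and 2.70 ± 0.25 higher in soleus (adjusted p = 6.81e-06 and 3.96e-06). Kcnq1 was at 7.64, 8.57 and 8.54 in EDL and 7.03, 7.94 and 8.03 in soleus, and was called in neither against myotubes. Kcnf1, a silent subunit, fell by 1.35 ± 0.21 in EDL and by 4.13 ± 0.21 in soleus (adjusted p = 0.000192 and 3.29e-08). Kcnc2 was at least 1.36-fold lower in EDL, with a fitted difference of -1.11 (adjusted p = 0.0034), but 0.39 higher with 50 added to the signals. The call was lost without EDL replicate 1 (-0.79) and without the arrays of replicate 2 (adjusted p = 0.0560). Its 3 probes did not all move the same way.

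Of the inward rectifiers 5 of 8 tested were higher in EDL and 6 in soleus, and none was lower. Kcnj12 rose further, to 12.33, 12.74 and 13.08 in EDL and 11.87, 12.10 and 11.80 in soleus. That is 2.29 ± 0.17 above myotubes in EDL (adjusted p = 7.34e-07) and 1.49 ± 0.17 in soleus (adjusted p = 2.22e-05; 0.30, uncalled, with scaling to the control RNA). All muscle arrays were above all myotube arrays. Kcnj15, at 5.21, 5.83 and 5.95 in EDL and 5.45, 6.38 and 6.11 in soleus, was called in neither. Among two-pore genes, Kcnk6 was at least 54.2-fold higher in EDL and 50.5-fold in soleus (adjusted p = 1.55e-08 and 1.86e-08). Kcnk1, a weakly inward-rectifying background channel, was at least 10.2-fold higher in soleus (adjusted p = 2.25e-08). Kcnk7 fell by 3.46 ± 0.32 in EDL and 3.80 ± 0.32 in soleus (adjusted p = 3.07e-06 and 1.53e-06), and Kcnk5, an acid-sensitive background channel, fell by 2.57 ± 0.29 and 2.73 ± 0.29 (adjusted p = 1.47e-05 and 9.47e-06). Kcnk13 stood at 9.01, 9.69 and 9.49 in myotubes and 8.21, 8.72 and 8.36 in EDL, -0.97 ± 0.25, just short of the limit of size, and was called with quantile normalization (-1.03). Its soleus value was -0.96 and likewise called with quantile normalization (-1.01). Kcnk3 was 1.11 ± 0.48 in EDL (adjusted p = 0.0571) and 0.99 in soleus (adjusted p = 0.0871), and was called in both without myotube replicate 1 (adjusted p = 0.0093 and 0.0144).

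Of the calcium- or sodium-activated genes 4 of 8 tested were higher and 2 lower in EDL, and 3 higher and 3 lower in soleus. Kcnn2, a small-conductance channel, was well above background on no culture array and read 10.63, 10.82 and 10.72 in EDL and 9.95, 9.92 and 10.05 in soleus. On this probe it was at least 153-fold and 91.0-fold above myotubes (adjusted p = 2.49e-11 and 4.25e-11). The other probe of Kcnn2 averaged 6.23 in EDL and 4.69 in soleus, and was well above background on only 1 soleus array. Kcnn4 fell by 3.68 ± 0.46 in EDL and by 4.46 ± 0.46 in soleus (adjusted p = 3.80e-05 and 8.69e-06), to 4.30, 5.62 and 3.98 and to 2.85, 4.37 and 4.33. Kcnn3 fell by 2.46 ± 0.43 and 1.77 ± 0.43 (adjusted p = 0.000411 and 0.00366), and neither was called with 50 added (-0.23 and -0.10). Kcnu1 fell by 2.46 ± 0.52 in soleus (adjusted p = 0.00163), with -0.63, uncalled, when 50 was added. Kcnn1 read 10.40, 10.45 and 10.48 in EDL, 1.25 ± 0.08 above myotubes (adjusted p = 1.23e-07), a call lost with scaling to the control RNA (0.16). Among auxiliary genes 8 of 11 tested were higher and 1 lower in each muscle. Kcnab1, a beta subunit that speeds inactivation of Kcna channels, was 3.58 ± 0.08 higher in EDL and 2.45 ± 0.08 in soleus (adjusted p = 9.73e-11 and 1.46e-09). Kcne2, a small subunit, was at least 16.6-fold higher in EDL (adjusted p = 1.51e-08), and Kcne1l was 6.32 ± 0.23 higher in soleus (adjusted p = 2.87e-09). Kcnab3 fell by 2.19 ± 0.30 in EDL (adjusted p = 7.40e-05) and was at least 3.94-fold lower in soleus (adjusted p = 1.37e-05), with -0.28 and -0.34, uncalled, when 50 was added.

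Whole muscle holds other cells besides fibres, and their markers moved with these differences. Against myotubes, endothelial markers were higher in 8 of 8 in both muscles, smooth muscle and pericyte markers in 6 of 7 in EDL and 7 of 7 in soleus, Schwann cell markers in 6 of 6, macrophage markers in 5 of 6, fibroblast markers in 5 of 5, adipocyte markers in 4 of 4 and erythroid markers in 2 of 2. Summed over each list, the log2 signal of endothelial markers was 7.30 to 8.05 in myotubes, 15.20 to 15.22 in EDL and 15.30 to 15.43 in soleus. That of smooth muscle and pericyte markers was 16.51 to 16.62, 18.20 to 18.38 and 17.99 to 18.08. Acta2 alone averaged 16.53, 18.14 and 17.86 in these groups, so the smooth muscle sum mostly follows this gene. The sum of Schwann cell markers was 11.70 to 11.87, 14.06 to 14.08 and 15.11 to 15.18. Each summed level was higher on every muscle array than on every myotube array. Macrophage markers went from 7.29 to 7.395 in myotubes to 13.69 to 13.76 in EDL and 13.81 to 13.87 in soleus, fibroblast markers from 13.15 to 13.51 to 17.21 to 17.49 and 16.79 to 16.88. Adipocyte markers went from 4.70 to 7.54 to 16.27 to 16.37 and 16.78 to 16.99, and erythroid markers from 6.72 to 7.17 to 14.76 to 15.12 and 13.69 to 14.07. In myotubes 3 of 8 endothelial, 1 of 7 smooth muscle, 3 of 6 macrophage, 3 of 4 adipocyte and 1 of 2 erythroid markers were well above background on no array, and none of the Schwann cell and fibroblast markers were. Kcnj8 is known from vascular smooth muscle and pericytes and Kcna1 from nerve, and the part of other cells in the rise of any member was not tested.

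Fast and slow muscle differed in fewer potassium channel genes. EDL held 16.5-fold more Kcnc4 and 6.88-fold more Kcng4, and soleus held 5.73-fold more Kcnma1 and 4.40-fold more Kcne1l. With normexp background correction Kcnc4 was the 1 member called, and of all genes tested 2.31% were called. Kcng4, Kcnma1 and Kcne1l were then at -1.90, 1.89 and 1.58 (adjusted p = 0.364, 0.395 and 0.494). Of the 55 tested members 15 were called (27.3%), 8 higher and 7 lower in soleus. Of all genes tested 9.78% were called, 5.03% higher and 4.74% lower. With scaling to the control RNA 6 members were called, 2 higher and 4 lower, and 4.88% of all genes. The median log2 difference was -0.02 for the tested members and -0.04 for all genes tested. Of 29 members seen on all 6 muscle arrays, 10 were called, 5 in each direction. The share of all genes so seen that was called was not counted. As labelled, 4 of 4 slow fibre markers were higher and 3 of 4 fast fibre markers lower in soleus. Of the other cells' markers 3 of 4 for adipocytes, 2 of 6 for Schwann cells and 1 of 7 for smooth muscle and pericytes were higher, 1 of 2 for erythroid cells was lower, and none for endothelium, macrophages or fibroblasts was called. Their part in the differences was not tested.

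Among voltage-gated genes 5 of 20 tested were lower and 3 higher in soleus. Kcnc4 (probe at chr3:107566702-107566761, build mm8, minus strand) fell by 4.04 ± 0.34 (adjusted p = 1.21e-05) from the array values given above, and all EDL arrays were far above all soleus arrays. Its relative Kcnc1 read 10.85, 10.91 and 10.74 in EDL and 9.07, 8.99 and 9.14 in soleus, a fall of 1.76 ± 0.21 (adjusted p = 0.000153) in which all 3 probes of the gene took part (-1.42, adjusted p = 0.533, with normexp). Kcnc2, of the same subfamily, was at least 1.48-fold higher (adjusted p = 0.00554), a call lost without EDL replicate 1 (0.91) and, by its p, without the arrays of replicate 2 (adjusted p = 0.114). Kcng4 was at 10.86, 10.48 and 10.87 in EDL and 7.92, 7.98 and 7.96 in soleus and fell by 2.78 ± 0.42 (adjusted p = 0.000639). Kcnf1, another silent subunit, fell by 2.78 ± 0.21 (adjusted p = 5.54e-06), from 7.52, 7.41 and 7.39 to 4.71, 4.24 and 5.03, and stood at -0.26 (adjusted p = 0.747) with normexp. Neither overlapped between muscles.

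Kcnd2, a channel of the transient outward current, was 1.07 ± 0.22 higher in soleus (adjusted p = 0.00437). It was seen on 1 EDL array, and the call was lost without EDL replicate 1 (0.99), EDL replicate 3 (0.97) or soleus replicate 1 (0.90). Among auxiliary genes Kcnab1 fell by 1.13 ± 0.08 (adjusted p = 4.27e-06), from 9.22, 9.31 and 9.36 to 8.11, 8.20 and 8.19. With scaling to the control RNA its adjusted p was 0.0833, and with 50 added its difference was -0.95, below the limit. Kcne1l was at 7.59, 7.53 and 7.42 in EDL and 9.76, 9.65 and 9.55 in soleus, 2.14 ± 0.23 higher (adjusted p = 7.28e-05). The muscles did not overlap for either gene. Of two-pore genes, Kcnk1 was 1.50 ± 0.27 higher (adjusted p = 0.00172; 0.148 with scaling to the control RNA), and of inward rectifiers Kcnj14 was 1.06 ± 0.30 higher (adjusted p = 0.0226). Kcnj14 lost its call without EDL replicate 1 (adjusted p = 0.0763), soleus replicate 2 (0.0730) or soleus replicate 3 (0.0728). Kcnu1, grouped by name alone with the calcium- or sodium-activated genes, fell by 1.93 ± 0.52 (adjusted p = 0.0181). It lost its call without EDL replicate 2 (0.0529) or 3 (0.0514) and without soleus replicate 1 (0.0565) or 2 (0.0647). Scaling to the control RNA also ended the calls of Kcnc2, Kcnd2, Kcnj14 and Kcnu1 (adjusted p = 0.321, 0.145, 0.506 and 0.116). With 50 added to the signals Kcnk1, Kcnc2, Kcnd2, Kcnj14 and Kcnu1 were at 0.74, 0.29, 0.35, 0.37 and -0.62, none called.

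**Figure D4:**
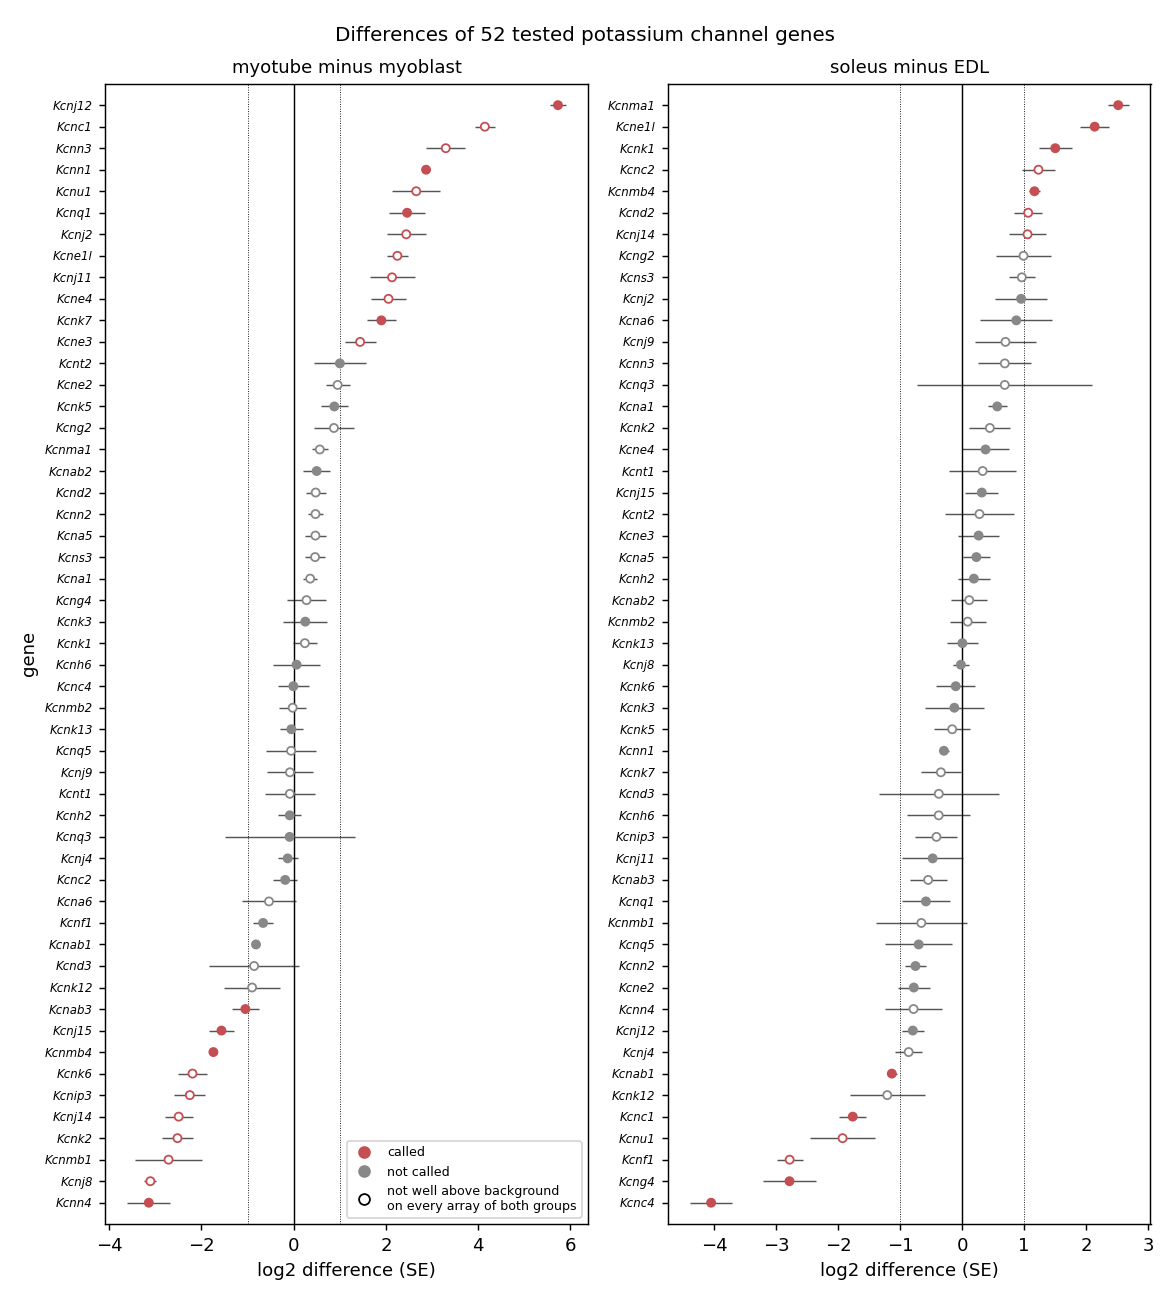
Log2 difference (horizontal axis) with its SE for 52 of the 55 tested genes, ordered by size, myotube minus myoblast on the left and soleus minus EDL on the right; red genes were called, open circles missed the well-above-background flag on 1 or more of the 6 arrays, and dotted lines mark a log2 difference of 1 in size. The left panel runs from Kcnn4 at -3.14 to Kcnj12 at 5.73, the right from Kcnc4 at -4.04 to Kcnma1 at 2.52.

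The subunits of ATP-sensitive channels were followed as a complex. The pore gene Kcnj11 was at 0.99, 2.62 and 3.51 in myoblasts, 4.28, 4.56 and 4.69 in myotubes, 11.41, 11.13 and 11.32 in EDL and 10.90, 10.68 and 10.85 in soleus. It was 2.13 ± 0.49 higher in myotubes than in myoblasts (adjusted p = 0.00306), of which 1 array was well above background. That call was lost with 50 added (0.60), without the arrays of replicate 2 (adjusted p = 0.0536) and with normexp, where the sign turned (-0.93). It was 6.78 ± 0.49 above myotubes in EDL and 6.30 ± 0.49 in soleus (adjusted p = 4.54e-07 and 8.50e-07), with no overlap. The other pore gene, Kcnj8, read 4.30, 4.41 and 4.48 in myoblasts, was well above background on no myotube array, and read 12.87, 12.87 and 13.04 in EDL and 12.80, 12.94 and 12.98 in soleus. That is at least 704-fold and 695-fold above myotubes (adjusted p = 2.47e-12 and 2.33e-12). The other probe of Kcnj8 was well above background on no array of either culture, myoblasts included, and averaged 10.16 in EDL and 10.28 in soleus. Of the receptors, Abcc8 moved at the myotube, from 3.42, 4.66 and 4.89 to 8.28, 8.60 and 8.67 (4.19 ± 0.32, adjusted p = 1.11e-06), and differed little from there to EDL (0.19 ± 0.32, adjusted p = 0.612). Abcc9 was well above background on no myoblast array and at least 8.08-fold higher in myotubes (adjusted p = 2.86e-10), then a further 7.34 ± 0.13 higher in EDL and 6.47 ± 0.13 in soleus (adjusted p = 2.84e-11 and 6.18e-11). The 2 muscles were not called different for Kcnj8, Kcnj11, Abcc8 or Abcc9; Abcc9 was at -0.87 ± 0.13 in soleus (adjusted p = 0.000689), below the limit of size.

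The BK pore gene Kcnma1 (probe at chr14:22100246-22100305, build mm8, minus strand) was seen on no culture array. It read 7.79, 7.46 and 7.52 in EDL and 10.40, 9.93 and 10.00 in soleus, at least 17.4-fold and 99.8-fold above myotubes (adjusted p = 2.52e-10 and 3.66e-11). All soleus arrays were above all EDL arrays, by 2.52 ± 0.17 (adjusted p = 2.19e-06). The beta subunit gene Kcnmb4 was seen in every group, unlike the pore, and was 7.36, 7.26 and 7.35 in EDL and 8.63, 8.41 and 8.43 in soleus, 1.17 ± 0.08 higher in soleus (adjusted p = 3.73e-06). That call was lost with scaling to the control RNA (adjusted p = 0.0968) and with 50 added (0.89). Among the gamma subunit genes, which shift the voltage at which BK channels open, Lrrc26 stood at 8.26, 8.80 and 8.85 in myotubes, 4.34 ± 0.56 above myoblasts (adjusted p = 5.54e-05), and fell by 4.83 ± 0.56 in EDL (adjusted p = 1.86e-05). Lrrc38 was at 12.82, 12.78 and 12.88 in EDL and 10.06, 10.36 and 10.31 in soleus, a fall of 2.58 ± 0.19 (adjusted p = 3.97e-06). Lrrc52 ran the other way, 3.62 ± 0.65 higher in soleus (adjusted p = 0.00186), with 1 EDL array well above background. Between the muscles, then, Lrrc52 and Kcnma1 were higher and Lrrc38 lower in soleus.

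**Figure D5:**
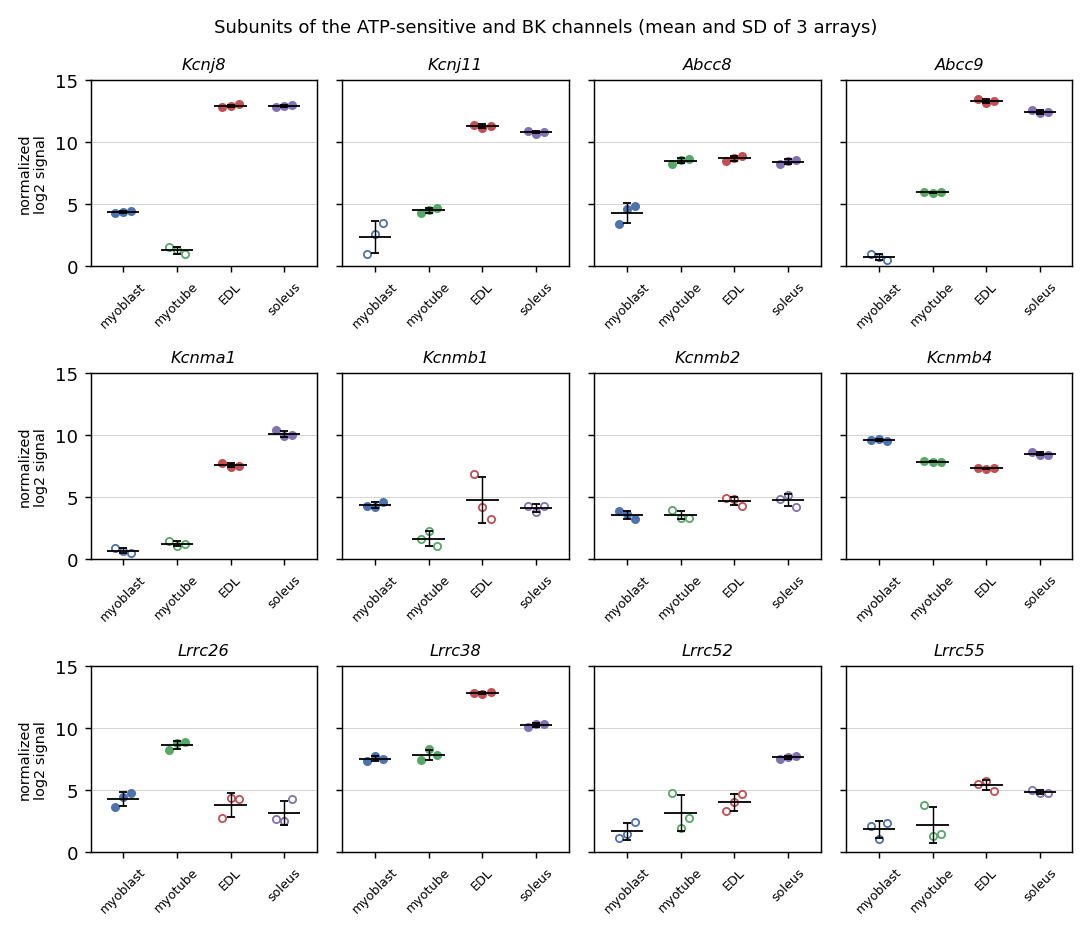
Normalized log2 signal (vertical axis) of ATP-sensitive channel genes (top row) and BK channel genes (lower rows) in the 4 groups; points are single arrays, open where fewer than 3 arrays of the group were well above background, with the mean and SD of 3 arrays. Abcc8 and Lrrc26 step up at the myotube, Kcnj8 and Kcnma1 in muscle, Kcnj11 a little at the myotube and further in muscle, and Lrrc38 and Lrrc52 lean to opposite muscles.

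Over the whole list of 12 partner genes outside the Kcn names, 11 were tested. In myotubes against myoblasts 5 were higher and none lower, in EDL against myotubes 3 higher and 2 lower, in soleus against myotubes 3 higher and 1 lower, and in soleus against EDL 1 higher and 1 lower. Amigo1, an auxiliary membrane protein, was 2.87 ± 0.09 higher in myotubes (adjusted p = 1.15e-09). Cav3, the caveolin of the muscle membrane, was 8.41 ± 0.13 higher (adjusted p = 1.12e-11). Of 15 other genes of membrane excitability (sodium, chloride and calcium channels, the sodium pump and the acetylcholine receptor), 13 were higher and none lower in myotubes. In EDL against myotubes 9 were higher and 4 lower, in soleus 8 higher and 5 lower, and in soleus against EDL 3 higher and 2 lower. The embryonic receptor subunit Chrng was 5.37 ± 0.13 higher in myotubes (adjusted p = 2.09e-10) and fell by 9.71 ± 0.13 in EDL (adjusted p = 5.10e-12). Of the markers of the cultures, 3 of 4 for dividing myoblasts were lower and 4 of 4 for differentiated muscle cells higher in myotubes.

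Set against myoblasts, Kcnn4 had the lowest difference of the tested members in both muscles, and the highest fitted differences were those of Kcnn2 in EDL and Kcnma1 in soleus. In EDL 34 of 55 tested members were higher and 9 lower, against 57.8% of all genes tested called, 33.0% higher and 24.8% lower. In soleus 34 were higher and 9 lower, against 55.4% of all genes called, 30.8% higher and 24.7% lower. Kcnn4 fell by 6.83 ± 0.46 in EDL and by 7.61 ± 0.46 in soleus (adjusted p = 2.01e-07 and 8.58e-08). Kcnn2 and Kcnma1 were well above background on no myoblast array. On the probes used, Kcnn2 was thus at least 218-fold higher in EDL (adjusted p = 6.32e-12) and Kcnma1 at least 142-fold in soleus (adjusted p = 8.92e-12). Kcnj12, seen in every group, was 8.02 ± 0.17 and 7.22 ± 0.17 higher (adjusted p = 3.41e-11 and 7.17e-11). Members with no call in any of the 4 comparisons named before included Kcnab2, Kcnh6, Kcnq3 and Kcnj4. Kcnq3 read 2.73, 7.53 and 6.42 in EDL and 3.20, 8.32 and 7.23 in soleus. Its low array in each muscle was replicate 1, on the same slide, where it was not well above background.

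Members outside the tests had no probe that was well above background throughout a group. They were Kcna2, Kcnd1, Kcng3, Kcnh3, Kcnh5, Kcnh7, Kcns1 and Kcns2 of the voltage-gated genes, Kcnj3, Kcnj5, Kcnj6, Kcnj10 and Kcnj16 of the inward rectifiers, Kcnk4, Kcnk10 and Kcnk16 of the two-pore genes, Kcne1, Kcnip1, Kcnip2 and Kcnmb3 of the auxiliary genes, and the 10 seen on no array.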

How the data were processed

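The scanner files hold 1-colour Agilent intensity values, extracted by the authors with Agilent Feature Extraction (version 10.5.1.1, per the file headers), with probe coordinates on build mm8; gene models of that build were not used here. The series' value table holds the authors' processed intensity values on a linear scale, as deposited, with the scaling unstated; it was an alternative only. Its 12 columns correlated at 0.9976 to 0.9997 with the scanner values, lacked 4899 to 11472 probes each and had medians of 226, 180, 157 (myoblasts), 254, 175, 169 (myotubes), 283, 123, 198 (EDL), 273, 168 and 161 (soleus).

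From the processed signal of 43379 non-control spots per array, spots flagged as outliers were dropped and spots of a probe averaged on the log2 scale (41174 probes). Each array was then scaled to the 75th percentile of its probes, and 9.65 was added back. Probes well above background on all 3 arrays of a group were kept (28607), and a gene was its brightest kept probe. The fit used R 4.3.3 and limma 3.58.1 (lmFit and eBayes, 2-sided, Benjamini-Hochberg over 18862 genes) with 4 group means over 12 arrays. The script was tested on simulated data. Members and lists were chosen with earlier results of these data known. The text names up to 10 highest and 10 lowest called members without overlap per comparison and all members seen on 12 arrays, apart from a few members not reported here; Kcnh6, Kcnq3, Kcnab2 and Kcnj4, Kcne3 and Kcnj11 in myotubes against myoblasts, the comparisons of muscle with myoblasts, the partners and the excitability genes were picked after their values were seen. Replicate numbers match the slides: deviations of all 18 same-numbered pairs correlated at 0.225 to 0.660, other pairs at -0.494 to 0.200. Arrays with the same number thus varied together. Slide 1 was scanned on another day than slides 2 and 3, so slide, scan and any pairing of samples cannot be told apart. The p-values in the text come from the fit without slide as a block. Alternatives were scaling to added control RNA (255 spots), quantile normalization, normexp (offset 50), the authors' values, filters, probe choice, gene names, a fit of the 2 compared groups, slide as a block and leaving out arrays; adding 50 to the signals was chosen after seeing the data. The number of arrays limits the precision.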

Additional observations from a re-analysis of the deposited data

Results flagged for a closer look

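Of 5 probes that the scanner files list under other names and that the reference table places in Kcn genes, 3 gave signal well above background on all arrays of a group, in data outside the comparisons above. The probe of Kcng1, a silent voltage-gated subunit, was well above background on 12 of 12 arrays, with mean normalized log2 signals of 6.07 ± 0.67 in myoblasts, 6.25 ± 0.80 in myotubes, 7.59 ± 0.77 in EDL and 7.06 ± 0.72 in soleus (SD, n = 3). The probe of Kcnh4 was well above background on 11 arrays, at 4.74 ± 0.19, 4.58 ± 0.41, 6.06 ± 0.65 and 5.66 ± 0.52. The probe of Kcnmb4os2, a transcript opposite Kcnmb4, was well above background on the 3 myoblast arrays (3.79 ± 0.15) and on no other array.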

How the results depend on the processing

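Only 12 members were well above background on all 12 arrays; for most others a fold is a bound set by the dim group. With the replicate block the counts were 24, 40, 42 and 16 for myotube against myoblast, EDL and soleus against myotube, and soleus against EDL (44 and 43 for EDL and soleus against myoblast). In the same order normexp gave 4, 12, 15 and 1 (14 and 10 against myoblasts), and of all genes 18.2%, 26.1%, 25.7% and 2.31% (32.3% and 28.1%). Keeping only probes well above background on all 12 arrays, which tests 12 members, gave 6, 7, 6 and 5 (12 and 12). Of all genes tested so, 32.7%, 43.1%, 40.7% and 7.94% were called (55.1% and 52.2%). Adding 50 to the signals gave 12 for myotube against myoblast and 8 for soleus against EDL, and of all genes 27.5% and 5.99%. Scaling to the control RNA gave 6 for soleus against EDL, and of all genes 4.88%. Scaling to the control RNA moved the median of all genes to -0.31, -0.88, -1.05 and -0.14. The normexp fit raised the floor on some arrays: the corrected signal at the 1st percentile was 388 and 1245 in myoblasts 1 and 2, 219 in myotube 1 and 921 in soleus 1, against 56.0 to 122 elsewhere. Normexp moved the median of all genes to -0.53, 0.34, 0.55 and 0.23. Among the genes named for the fall from myotubes to muscle, it ended the calls of Kcnn4, Kcnk7, Kcnk5, Kcnf1, Kcnn3 and Kcnab3 in both muscles, and for the rise those of Kcnma1, Kcne2, Kcnh2 and Kcnn1 in EDL and of Kcnk1 and Kcnj12 in soleus. Under normexp these differences turned sign, none called: Kcnc1 -0.62, Kcnn3 -0.36, Kcnu1 -0.44, Kcnj2 -0.84, Kcne1l -1.12, Kcne3 -1.31 and Kcnj11 -0.93 in myotube against myoblast, Kcnc2 0.30 in EDL against myotube, Kcnab3 0.71, Kcnu1 0.48 and Kcnn3 0.72 in soleus against myotube, and Kcnu1 0.48 in soleus against EDL. Kcnc2 was 0.39 in EDL against myotube with 50 added. Members well above background became 49 in myotubes, 59 in EDL and 62 in soleus with the scanner's looser flag for a positive and significant signal, and 49 in EDL with 2 of 3 arrays. Leaving out replicates gave 22 to 25, 36 to 42, 38 to 45 and 11 to 14 calls (38 to 46 and 39 to 43 against myoblasts). Of all genes 33.8% to 35.5%, 45.4% to 48.8%, 43.3% to 46.7% and 8.2% to 9.82% were then called (55.4% to 58.9% and 53.4% to 56.7%). Members well above background were 34 to 44, 29 to 39, 32 to 47 and 36 to 53 in myoblasts, myotubes, EDL and soleus. Shares of all genes well above background at these looser limits were not counted. The other counts stayed within 1.5 times those reported.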
